A study of Rattus norvegicus with 108 samples.

Results

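Serotonin receptors and monoamine oxidases were followed across single cells of the rat dentate gyrus after chronic fluoxetine (FT) or water (Sham). The 7 genes were the rows of Htr1a, Htr2a, Htr2c, Htr4, Htr7, Maoa and Maob among the 19127 genes of the count tables, and each was found in both the dorsal (dorDG) and the ventral (venDG) dentate gyrus table. For every gene the share of cells with at least 1 UMI (a counted transcript molecule) and the UMIs per 10000 UMIs of all genes were taken by cell type, by region and by treatment. The animals were male Long-Evans rats, 2 months old at the start, that took 18 mg/kg fluoxetine or plain water for 6 weeks, and no allele or line was involved. A replicate was a pool of micropunched tissue from several animals, so the p-values below measure the spread between pools. There were 4 FT and 5 Sham replicates of dorDG and 5 of each for venDG, with 3347 cells used in all, 1289 of them from dorDG.

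Serotonin is released into the dentate gyrus by axons of the raphe nuclei and acts on several receptor families there. Htr1a couples to inhibitory G proteins, Htr2a and Htr2c to the phospholipase C pathway, and Htr4 and Htr7 to stimulation of adenylyl cyclase. Maoa and Maob, which lie side by side on the X chromosome, encode outer mitochondrial membrane enzymes that oxidise monoamines, and fluoxetine blocks the serotonin transporter upstream of both enzymes and receptors.

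Promoter sequences of the oxidases are shown because both neighbouring genes were high in vessel cells, while Maob was also high in astrocytes (below). Of the 7 genes, 4 had a promoter window in the RefSeq tables of the build GRCr8, running from 250 bases before to 50 bases after the start of the gene. The Maoa window lies at chrX:8681323-8681622 on the minus strand and the Maob window at chrX:8490155-8490454 on the plus strand. Capitals mark each match to GGGCGG, the core of the GC box bound by Sp1-family factors, or to its reverse complement CCGCCC; matches do not overlap, and both windows are written 5′ to 3′.
Maoa: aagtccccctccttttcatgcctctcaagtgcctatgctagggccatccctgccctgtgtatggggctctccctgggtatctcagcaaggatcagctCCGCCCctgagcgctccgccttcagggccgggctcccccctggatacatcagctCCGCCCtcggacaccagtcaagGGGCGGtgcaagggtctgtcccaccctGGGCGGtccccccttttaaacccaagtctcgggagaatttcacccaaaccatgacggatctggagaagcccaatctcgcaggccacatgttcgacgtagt
Maob: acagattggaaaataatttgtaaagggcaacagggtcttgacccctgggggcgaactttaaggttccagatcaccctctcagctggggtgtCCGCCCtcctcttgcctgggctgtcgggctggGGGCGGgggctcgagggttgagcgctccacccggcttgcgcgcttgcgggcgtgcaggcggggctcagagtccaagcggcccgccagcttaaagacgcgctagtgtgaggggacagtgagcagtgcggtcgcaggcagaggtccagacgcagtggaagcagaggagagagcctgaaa
The Maoa window held 4 matches and the Maob window 2, while 33.1% of all 33469 windows held at least 1, 17.0% at least 2 and 4.64% at least 4. Neither the Htr7 nor the Htr2c window held a match, although 79.7% of the Htr7 window was G or C. A match is a description of these letters and not a measured binding site.

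The count tables held between 220162 and 1523537 UMIs per replicate. In dorDG, neurons made up 16.6% of the cells of FT replicates on average (10.1% to 27.4%) and 31.5% of those of Sham replicates (25.4% to 46.0%). Cells with under 2% of UMIs from ribosomal protein genes, called low-ribosomal here, were 36.6% of all cells, and in dorDG 23.0% of FT and 51.2% of Sham cells on average. The labels speak of nuclei and the study's methods of cells and of nuclei from the same tissue, and the labels give 2 10x reactions for 8 replicates without saying which material each held. 9 barcodes occurred in more than 1 reaction. Some deposited dorDG type names went against their markers. Cells annotated Mossy held 34.6 UMIs per 10000 of endothelial and 19.2 of mural cell markers and 0.0212 of mossy cell markers (3 of 4 at 0). Cells annotated InhibNeuron were mixed, with 9.98 of the excitatory and 5.31 of the inhibitory marker list. They held 3.21 of the excitatory marker Slc17a7 and 0.296 of Gad1. The inhibitory list was at 5.21 in Granule, 4.94 in ExcitNeuron and 7.12 in OPC cells. Cells annotated Granule held 388 of hemoglobin genes and less of the granule cell list (1.80) than InhibNeuron cells (4.23). These names are therefore used only as the annotation's labels. For venDG no cell type annotation was used here, and its classes are clusters named from marker genes, made without the 7 genes.

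Detection set the limit for Htr1a, the inhibitory autoreceptor and heteroreceptor. It was counted 8 times in 1289 dorDG cells and 9 times in 2058 venDG cells, that is in 0.543% (exact 95% interval 0.219% to 1.12%) and 0.437% of cells. In dorDG, 7 of the 12 types had no Htr1a UMI. For all dorDG cells together, a count of 0 would have allowed a level of up to 0.00489 UMIs per 10000, and the measured level was 0.0130. At this depth no difference in Htr1a by type, region or treatment was detectable, and no fold change is given for it. Intervals here and below cover counting error only.

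The other receptors were counted more often. Htr2a had 1021 UMIs in dorDG and 1633 in venDG, Htr4 had 721 and 624, Htr7 195 and 314, and Htr2c 157 and 286. The oxidase Maoa had 329 and 594 UMIs and Maob 558 and 791. In dorDG, 44.8% of cells held an Htr2a UMI, 29.9% an Htr4, 21.6% a Maob, 17.5% a Maoa, 11.6% an Htr7 and 8.84% an Htr2c UMI. These shares rank detection and not transcript number, since the 3′ counts were compared only within a gene.

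Htr4, a receptor that raises cyclic AMP, was highest in the dorDG cells annotated as neurons. Its level was 2.97 UMIs per 10000 (95% interval 2.64 to 3.32) in InhibNeuron and 2.94 (2.44 to 3.51) in ExcitNeuron cells, which did not differ beyond their intervals. It was 1.36 (1.03 to 1.77) in Granule cells and between 0.20 and 0.72 in the other 9 types. Across replicates with at least 5 such cells the InhibNeuron level ranged from 2.32 to 4.07 (2.88 ± 0.68, SD, n = 6), and no Microglia1 replicate was above 1.01 (n = 9). The InhibNeuron and Microglia1 replicates did not overlap. An Htr4 UMI was present in 80.3% of InhibNeuron cells and in 29.9% of Microglia1 cells, whose median depths were 5846 and 6669 UMIs. After each cell was thinned to 1000 UMIs the shares were 25.2% and 2.88%.

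Htr2c and Htr7 were also highest in cells annotated as neurons, at lower counts. Htr2c, the phospholipase-coupled receptor best known from the choroid plexus, had 0.92 UMIs per 10000 (0.65 to 1.26) in ExcitNeuron, 0.44 in InhibNeuron and 0.37 in Granule cells, and no UMI in BergGlia or Microglia2 cells, where a count of 0 allows up to 0.60 and 0.093. In the 4 replicates with enough ExcitNeuron cells, Htr2c ran from 0.0695 to 2.36, a spread wider than the gap between these types. Htr7, which stimulates adenylyl cyclase, had 1.08 (0.79 to 1.45) in ExcitNeuron and 0.48 (0.36 to 0.64) in InhibNeuron cells and 0.41 in Granule cells, against 0.14 in Microglia1. The ExcitNeuron values of Htr7 in the 4 replicates were 0.69 to 1.46, all above every Microglia1 replicate, the highest of which was 0.25. Shares of cells gave the same contrast, with an Htr7 UMI in 40.0% of ExcitNeuron and 6.54% of Microglia1 cells, and an Htr2c UMI in 25.5% and 6.54%. Thinning to 1000 UMIs left 7.55% against 2.88% for Htr7 and 1.89% against 1.92% for Htr2c, so the Htr2c order could not be read at that depth.

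Htr2a, the other phospholipase-coupled receptor, did not follow the neurons. Its dorDG level ran from 1.14 UMIs per 10000 in Granule to 2.61 in BergGlia cells, a ratio of 2.28, and the intervals of all neighbours in that order overlapped. The BergGlia value came from only 43 cells, and its interval overlapped those of all 11 other types. Overlap of neighbours does not compare types far apart in the order. InhibNeuron cells, at 1.16, were next to the lowest and ExcitNeuron cells, at 1.66, in the middle, while AstroSub1 had 2.48 (1.96 to 3.11) and Endothelial 2.07 (1.74 to 2.44). Microglia1 cells had a level of 1.27 and an Htr2a UMI in 54.2% of cells, close to the InhibNeuron share of 53.1%. Whether the UMIs in either type came from free RNA was not tested. In venDG the astrocyte class had 3.52 (3.06 to 4.03), and the next class, Vascular, had 2.29 (2.05 to 2.55).

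Maoa and Maob, the enzymes, were highest in vessel cells. Maoa had 2.49 UMIs per 10000 (2.13 to 2.90) in Endothelial cells, where 55.6% of cells held a UMI. The next type, cells annotated Mossy but carrying vessel markers, had 0.91 (0.66 to 1.23), and no other type exceeded 0.44. The lowest Endothelial replicate stood at 1.09 and the highest at 4.30 (2.48 ± 0.95, SD, n = 9), and the highest Microglia1 replicate at 0.76, so these ranges did not overlap. BergGlia cells had no Maoa UMI, which allows up to 0.60.

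Maob shared the vessel cells with Maoa but was also high in astrocytes. It had 3.78 UMIs per 10000 (3.33 to 4.27) in Endothelial and 3.16 (2.57 to 3.85) in AstroSub1 cells, whose intervals overlapped, and 0.076 in Oligodend2 cells. In AstroSub1 cells Maoa was at 0.097 (0.020 to 0.28), with 3 UMIs, with an interval that overlapped that of Microglia1 cells (0.083 to 0.30). Of 180 Endothelial cells, 100 held a Maoa UMI, 105 a Maob UMI and 65 both. The cells with both were deeper, with a median of 4704 UMIs against 1848 in those with neither. OPC cells had a Maob level of 0.80, but its 40 UMIs came from only 12 of 87 cells.

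**Figure D1:**
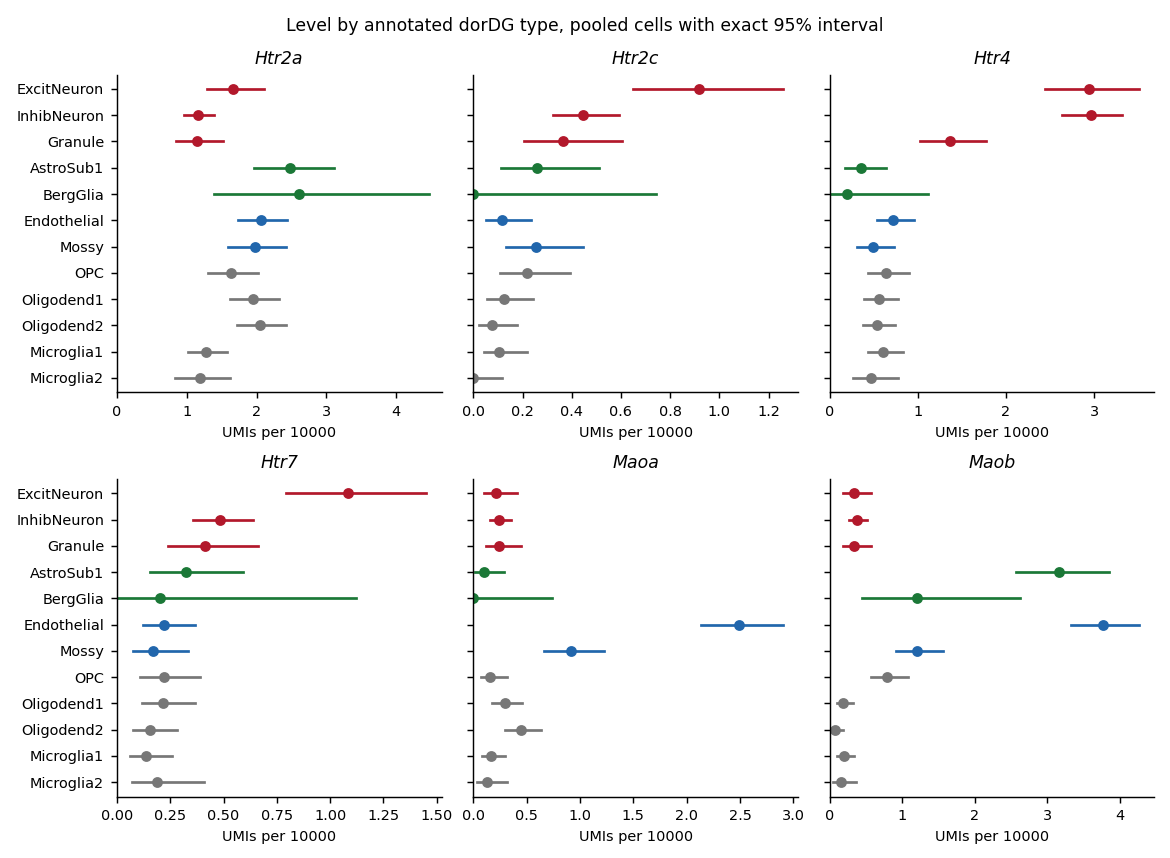
Levels of 6 of the 7 genes in UMIs per 10000 (x axis) in the 12 annotated dorDG cell types (y axis), with exact 95% intervals for counting error. Htr4, Htr2c and Htr7 stand highest in the annotated neurons, Maoa in Endothelial cells, Maob in Endothelial and AstroSub1 cells, and Htr2a shows no type set apart from its neighbours.

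The venDG classes, named without these genes, gave a like order. Htr4 was at 2.30 UMIs per 10000 (2.06 to 2.57) in the Neuron class and between 0.28 and 0.54 in the other 5, Htr2c at 1.14 (0.97 to 1.33) against at most 0.21, and Htr7 at 1.06 (0.895 to 1.247) against at most 0.32. Maoa was at 2.38 (2.14 to 2.64) in the Vascular class and at most 0.54 elsewhere. Maob was at 3.52 (3.06 to 4.03) in the Astrocyte and 2.89 (2.63 to 3.18) in the Vascular class, whose intervals overlapped, and at most 0.41 in the others. Within the Vascular class, the oxidases differed by cluster. The largest cluster, of 133 endothelial-like cells, had 3.42 of Maoa (2.96 to 3.95) and 4.52 of Maob (3.98 to 5.11), and the 67 mural-like cells had 0.53 (0.21 to 1.08) and 0.45 (0.17 to 0.98).

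Within the venDG Neuron class the receptors varied by cluster. The highest Htr4 level, 6.47 (4.80 to 8.53), was in 19 granule-like cells, from 50 UMIs in 10 of them, and these cells had no Htr2c UMI, which allows up to 0.39. Htr2c was highest, at 1.79 (1.38 to 2.28), in 34 excitatory-like cells with 8.38 of Slc17a7. There the 66 Htr2c UMIs came from 11 cells. Htr7 was highest, at 2.25 (1.48 to 3.27), in 28 inhibitory-like cells with 3.66 of Gad1 and 2.83 of Gad2, and only 0.35 in the excitatory-like cells with the highest Htr2c. The same inhibitory-like cluster held 16 of the 45 venDG UMIs of Htr3a, the serotonin-gated channel subunit, at 1.33 (0.76 to 2.16).

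Genes whose levels across the 12 dorDG types were most like those of each member were ranked by Pearson's correlation among 4282 genes, a description over 12 types that share the same libraries. Kcnj6 (r = 0.997), a G protein-gated potassium channel, Celf5 and Camkv came closest to Htr4. Nos1ap (0.989), Epha6 and Chgb came closest to Htr7, and Agbl1 (0.969), Ensa and Cadps2 to Htr2c. Maoa was most like Emcn (0.989), an endothelial sialomucin, with Cyyr1 and Csrp2 next. Maob, with Cachd1 (0.939), Eci1 and Slc3a2, and Htr2a, with the mitochondrial Mt-co1 (0.959), LOC100361944 and Cnn3, had looser matches. Among the members themselves, Htr2c and Htr7 were most alike (0.951), Htr4 had 0.854 with Htr2c and 0.839 with Htr7, and Maoa and Maob had 0.651.

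Next, FT was compared with Sham over all cells of each replicate, asking whether the drug was accompanied by altered expression of its own signalling partners. In such sums fewer cells of a type and less RNA per cell cannot be told apart. With edgeR's quasi-likelihood test, a gene was called where its adjusted p did not exceed 0.2 and its log2 fold change reached 0.32 in either direction, the thresholds of the study. In dorDG 28.6% of the 4274 genes that averaged 0.5 or more UMIs per 10000 were called, and 0 of the 4 members that passed this filter (Htr2a, Htr4, Maoa and Maob). None of the 4 had an unadjusted p under 0.05, while DESeq2 and limma each called 1, Htr4. DESeq2 also called more of all genes than edgeR did (counts at the end), so its call is not particular to Htr4. The share of all genes called by limma is not given here. In a fit of all 18918 genes with a UMI, 1.09% were called and no member.

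Htr4 had the largest log2 fold change of the 4 in dorDG. Its FT replicates stood at 0.739, 1.47, 0.571 and 0.788 UMIs per 10000 and its Sham replicates at 1.37, 0.864, 2.32, 1.13 and 1.31. FT replicate 2 lay above 4 of the 5 Sham replicates, and the other 3 lay below all of them. The log2 fold change was -0.54 (SE 0.30), with an adjusted p of 0.233 in edgeR, 0.172 in DESeq2 and 0.190 in limma. Leaving out FT replicate 2, Sham replicate 2 or Sham replicate 4 brought the edgeR value to 0.179, 0.138 and 0.187. Over all left-out replicates the number of genes called ran from 0 to 1969, and the shares in these fits are not given. The Sham replicates also held more neurons and more low-ribosomal cells (above). Within the pooled neurons the log2 fold change was 0.17 (SE 0.38, adjusted p 0.866), within low-ribosomal cells 0.23 and within the remaining cells -0.15. The part of these cell shares in the FT difference of Htr4 was not tested. In replicates with both reactions, the first reaction gave 0.481 and 0.830 in FT and 0.457 and 0.687 in Sham, and the second 2.06 and 3.67 in FT and 2.43 and 1.29 in Sham, so the FT and Sham values interleaved in both.

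Htr2c was lower in FT by count in dorDG but did not pass the test. FT replicates had 0.295, 0.158, 0.084 and 0.120 UMIs per 10000 and Sham replicates 0.316, 0.242, 0.306, 0.559 and 0.204. Of the 4 FT values, 3 lay below every Sham value and 1, replicate 1, lay among them. In the fit of all genes the log2 fold change was -0.80 (SE 0.37, p = 0.0375, adjusted p = 0.356, edgeR). Htr7 followed with -0.53 (SE 0.35, adjusted p = 0.508), from 0.118 to 0.418 in FT and 0.214 to 0.530 in Sham. Htr2c was thus the member with the lowest p in dorDG, from 48 UMIs in FT and 109 in Sham cells.

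Over all dorDG cells, Htr2a and the oxidases had smaller log2 fold changes than Htr4. The log2 fold changes were 0.10 (SE 0.21, adjusted p 0.738, edgeR) for Htr2a, 0.22 (SE 0.26, adjusted p 0.551) for Maoa and 0.01 (SE 0.29, adjusted p 0.978) for Maob. Maob ran from 0.702 to 1.11 in FT and from 0.466 to 1.56 in Sham, so the FT replicates lay inside the Sham range. Maoa lay between 0.463 and 0.672 in FT and between 0.389 and 0.838 in Sham, with the same nesting.

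None of 4079 genes (0%) and no member passed in venDG with edgeR, where the unadjusted p was under 0.05 for 237 genes and no member. DESeq2 called 18 genes, and neither DESeq2 nor limma called a member. Htr2a had the largest log2 fold change of the filtered members, 0.31 (SE 0.22, adjusted p 0.773), with FT replicates at 1.61, 2.52, 2.14, 2.11 and 1.99 and Sham replicates at 1.22, 2.15, 1.64, 1.52 and 1.90. Of the FT values, 4 lay above 4 of the 5 Sham values. Htr4 had -0.20 (SE 0.31), Maoa -0.07 (SE 0.24) and Maob -0.09 (SE 0.28). In the fit of all 19011 genes, where 0.0158% were called, Htr2c had 0.23 (SE 0.30) and Htr7 0.33 (SE 0.33), opposite in sign to dorDG. The difference between the regions was tested directly: the interaction was called for 0 genes with the filter (0%) and 0 without, DESeq2 called 8 genes and no member, and of the members only Htr2c had an unadjusted p under 0.05 (log2 difference -1.01, SE 0.48, p = 0.0433, adjusted p = 0.739, edgeR).

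**Figure D2:**
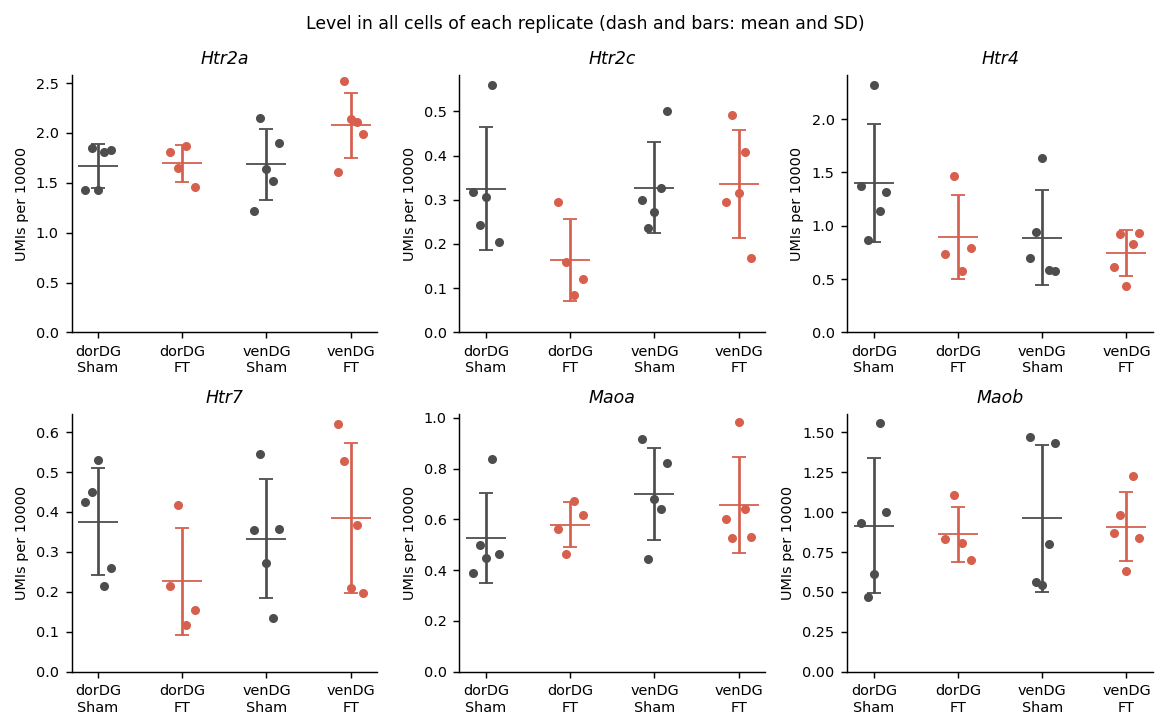
UMIs per 10000 (y axis) of 6 of the 7 genes in every replicate of the 4 groups (x axis), with points for replicates and lines for mean and SD. FT and Sham points overlap for every gene in both regions, and in dorDG 3 of the 4 FT points of Htr4 and of Htr2c lie under all 5 Sham points.

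Shares of cells were compared by an exact two-sided permutation test over replicates, 14 tests in all with no correction. The smallest p this design allows is 0.0159 in dorDG and 0.00794 in venDG. The lowest value was that of Htr2c in dorDG, with 6.49% ± 2.90 of cells in FT (SD, n = 4) and 10.5% ± 1.82 in Sham (SD, n = 5, exact permutation p = 0.0635). Htr4 followed with 24.7% ± 3.99 and 34.1% ± 9.93 (exact permutation p = 0.0952). In venDG no p was below 0.127. After thinning to 1000 UMIs, Htr2c was found in 1.15% ± 0.29 of FT cells and 2.81% ± 0.39 of Sham cells (n = 4 and n = 5, exact permutation p = 0.0159), with no overlap between groups. The thinning was 1 random draw, in which only 2.09% of 1147 dorDG cells held an Htr2c UMI. Whether other draws keep the groups apart was not tested, and how many of all genes lack overlap after thinning was not counted. Without the thinning, leaving out FT replicate 1 took the dorDG Htr2c difference to an exact permutation p of 0.0357. In venDG, Htr4 reached 0.0476 without FT replicate 5 and Htr2a 0.0317 without Sham replicate 5, by the same exact permutation test. Within dorDG cells of at least 2% ribosomal UMIs the Htr2c difference was -0.513 percentage points (exact permutation p = 0.762), and within low-ribosomal cells -5.16 points (exact permutation p = 0.254). Over all 7 genes and both regions, every FT range overlapped its Sham range in UMIs per 10000.

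Low-ribosomal cells, compared on their own, held larger FT differences of Htr2a in dorDG and Htr2c in venDG than all cells did, neither of them called. In dorDG, Htr2a was at 1.91, 2.04, 1.17 and 1.54 UMIs per 10000 in FT and 1.16, 1.42, 1.254, 1.06 and 1.06 in Sham, so that 3 FT replicates lay above every Sham replicate. The log2 fold change was 0.71 (SE 0.26, p = 0.0129, adjusted p = 0.424, edgeR), against -0.25 (SE 0.16) in the other cells. In venDG, Htr2c was at 0.863, 1.18, 1.72, 1.36 and 0.468 in FT and 0.640, 0.178, 0.532, 0.722 and 0 in Sham. There 4 of the FT replicates lay above every Sham replicate. The log2 fold change was 1.30 (SE 0.44, p = 0.00904, adjusted p = 0.808, edgeR), and in the fit of all genes 1.31 (p = 4.03e-04, adjusted p = 0.247), against -0.74 (SE 0.41, adjusted p = 0.908) in the other cells. In low-ribosomal dorDG cells a Maoa UMI was found in 6.47% ± 2.87 of cells in FT and 11.4% ± 3.86 in Sham (n = 4 and n = 5, exact permutation p = 0.0476), with overlap. After thinning, Maoa was found in none of the FT cells and 4.05% of the Sham cells on average, and Htr2a in 21.1% and 11.0%, both without overlap (n = 4 and n = 5, exact permutation p = 0.0159 for each). These thinned shares rest on the same random draw, and 0.0159 is the smallest exact permutation p possible here. How many of all genes lack overlap in these thinned cells was not counted. The dorDG FT replicates held only 15 to 83 low-ribosomal cells each.

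FT and Sham were then compared within types. In dorDG, 10 fits (9 annotated types and the pooled neurons) held 26 tests of members, and 0 were called beside 0.591% of all gene tests. The lowest unadjusted p was that of Maob in OPC cells (log2 fold change 1.83, SE 0.83, p = 0.0331, adjusted p = 0.931, edgeR). In Endothelial cells Maoa had 0.51 (SE 0.33, adjusted p 0.882) and Maob -0.19 (SE 0.35, adjusted p 0.961), and in AstroSub1 cells Maob had -0.35 (SE 0.46, adjusted p 0.928). When Endothelial cells were joined with the vessel-marked Mossy cells, Maoa had -0.05 (SE 0.31) and Maob -0.55 (SE 0.38). In pooled neurons Htr2a had 0.45 (SE 0.30, adjusted p 0.482) and Htr7 -0.07 (SE 0.51, adjusted p 0.970). BergGlia, ExcitNeuron and InhibNeuron cells could not be tested alone, having fewer than 3 replicates with 5 cells in at least 1 group.

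In venDG, 6 class fits held 15 tests of members and 0 were called, beside 1.42% of all gene tests. The lowest adjusted p was 0.266, for Htr2a in astrocytes (log2 fold change 1.003, SE 0.49, unadjusted p 0.0445, edgeR), where Htr4 had -1.18 (SE 0.66, adjusted p 0.311). Without FT replicate 1 both were called (Htr2a 1.30, adjusted p 0.0527, and Htr4 -1.51, adjusted p 0.121), and without Sham replicate 4 Htr2a alone (1.19, adjusted p 0.181). With all replicates the astrocyte fit called 327 of its 4010 genes, which were all the calls behind the 1.42%. The shares of all genes called in the left-out fits are not given here. The 3 astrocyte clusters differed in Htr2a and Htr4 with the ribosomal share. The 110 cells of a cluster with 95.5% low-ribosomal cells had 1.35 of Htr2a and 1.26 of Htr4, the 87 cells of a cluster with 11.5% had 4.55 and 0.13, and the 42 cells of a cluster with none had 6.07 and no Htr4 UMI, which allows up to 0.49. The part of that mixture in the FT difference was not tested. In neurons Htr2c had 0.61 (SE 0.42, adjusted p 0.701) and Htr7 0.54 (SE 0.44, adjusted p 0.759), and in vessel cells Maoa had 0.12 (SE 0.27) and Maob 0.07 (SE 0.30).

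Comparing the regions with treatments weighted equally, 0.216% of 4161 genes were called and no member. No filtered member had an unadjusted p under 0.05. Htr4 was higher in dorDG by count (log2 0.47, SE 0.23, p = 0.0571, adjusted p = 0.794, edgeR) and Maoa lower (-0.33, SE 0.18, p = 0.0761, adjusted p = 0.867). Without the filter, where 0.261% of genes were called, Htr2c had -0.56 (SE 0.24, p = 0.0269) and Htr4 0.43 (SE 0.20, p = 0.0384), neither called. DorDG replicates held more neurons on average than venDG replicates, and within neurons the Htr4 difference was 0.08 (SE 0.24, adjusted p 0.956). The part of the neuron share in the regional Htr4 difference was not tested.

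Within neurons Htr2c differed most between the regions. Its dorDG neuron level ranged over replicates from 0 to 1.09 UMIs per 10000, median 0.277, and its venDG level from 0.351 to 2.01, median 0.995. The ranges overlapped, and the venDG median was just under the highest dorDG value. The log2 difference was -1.05 (SE 0.41, p = 0.0185, adjusted p = 0.213, edgeR), not called, while DESeq2 (-1.13, adjusted p 0.0903) and the fit without the filter (-1.03, adjusted p 0.0502) called it. In neurons, edgeR called 383 of 4568 genes with the filter and 650 of 18285 without it. The share of all genes called by DESeq2 is not given here. Within neurons of at least 2% ribosomal UMIs the Htr2c difference was -0.21 (SE 0.65). Over all classes 0 members and 1.92% of gene tests were called. Without the filter Maob was also called in OPC cells (1.73, adjusted p 0.193), beside 27 of 17409 genes. Its dorDG UMIs there came from few cells (above). The regions' cell types were named by different routes, so a difference within a class can include a difference in which cells the class took in.

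The order of the reactions within a replicate went with larger differences in some members. In the 8 replicates with 2 reactions, 78.3% to 95.9% of the cells of the second and 4.08% to 15.5% of the first were low-ribosomal, and neurons were 10.6% to 52.2% and 2.04% to 11.7%. The paired edgeR fit called 84.2% of 4378 genes, so that a call here is not particular to a member, and 45.6% of them had 8 values in the second reactions that did not overlap the 8 of the first. Of the 5 members tested, Htr7 and Htr4 were called.

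Htr7 had 0.051 to 0.226 UMIs per 10000 in the first reactions (median 0.134) and 0.577 to 2.097 in the second (median 1.21). All 8 second values lay above all first values. The log2 difference was 2.78 (SE 0.29, adjusted p 6.39e-07, edgeR), against a median of 0.13 over all genes. Htr4 rose from 0.276 to 0.830 (median 0.575) to 0.909 to 3.67 (median 1.75), again without overlap, by 1.24 on the log2 scale (SE 0.23, adjusted p 1.95e-04). Htr2c, in the fit without the filter that called 51.2% of genes, was higher by 0.97 (SE 0.29, adjusted p 0.00341) and in 6 of 8 replicates.

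Htr2a, Maoa and Maob did not pass the test. Their log2 differences were -0.17 (SE 0.22, adjusted p 0.506), -0.26 (SE 0.25, adjusted p 0.367) and 0.01 (SE 0.25, adjusted p 0.962), with ranges that overlapped, although their UMIs per 10000 were higher in the second reaction in 6, 5 and 6 of 8 replicates. Within neurons of 5 replicates, where 15.9% of genes were called, the Htr7 difference was 2.44 (SE 0.49, adjusted p 1.79e-05) and that of Htr4 0.33 (SE 0.33, adjusted p 0.745). In the other cells, where 41.9% of genes were called, Htr7 had 2.38 (SE 0.32, adjusted p 3.48e-12), Htr4 0.80 (SE 0.27, adjusted p 0.0141) and Htr2c 1.04 (SE 0.40, adjusted p 0.0337). The Htr7 difference was thus close to its whole-reaction size within neurons and within other cells, and that of Htr4 was smaller within neurons.

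Splitting the reactions by ribosomal share changed which members were called. Among low-ribosomal cells of 7 replicates, where 14.8% of genes were called, Htr7 had 1.76 (SE 0.48, adjusted p 0.0106, edgeR) and Htr4 1.09 (SE 0.41, adjusted p 0.0916). Among cells of at least 2%, where 24.5% were called and the median of all genes was -0.80, Htr7 had 1.71 (SE 0.55, adjusted p 0.0175) and Htr4 -0.85 (SE 0.48, adjusted p 0.269), so the direction of Htr4 turned. In those cells Maoa (1.37, SE 0.37, adjusted p 0.00344), Maob (1.31, SE 0.34, adjusted p 0.00181) and Htr2a (1.06, SE 0.30, adjusted p 0.00638) were called as well. Only Htr7 was called and higher in the second reactions in every one of these subsets.

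**Figure D3:**
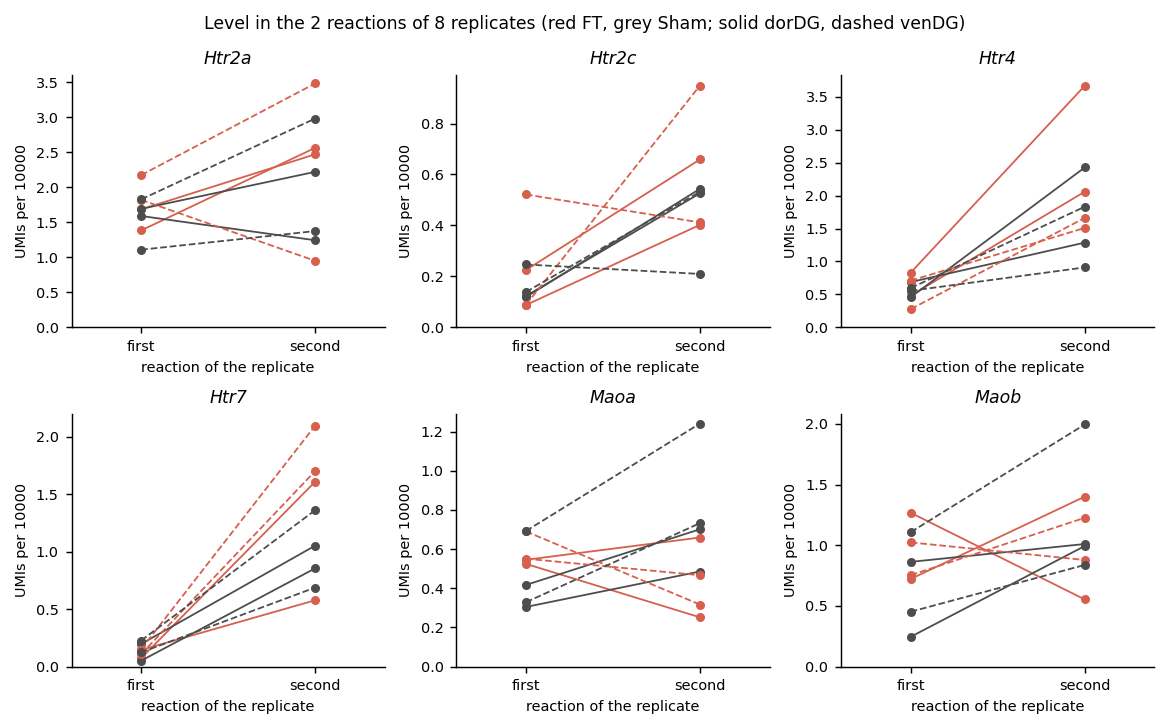
UMIs per 10000 (y axis) of 6 of the 7 genes in the first and second reaction (x axis) of the 8 replicates with 2 reactions, each line joining the reactions of a replicate (red FT, grey Sham, solid dorDG, dashed venDG). All 8 lines rise for Htr7 and for Htr4, 6 of 8 for Htr2c, and those of Htr2a, Maoa and Maob run in both directions.

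The members were also compared by ribosomal share inside types. Among 18 types (12 of dorDG and 6 classes of venDG), low-ribosomal cells had a higher Htr7 level than the other cells of their type in 18, a higher Htr4 level in 17, Htr2c and Maoa in 13, Maob in 10 and Htr2a in 9. The same counts over all genes were not taken, so they are not read as particular to a member. In InhibNeuron cells Htr4 was at 3.50 in low-ribosomal cells and 1.68 in the others. In ExcitNeuron cells Htr7 was at 1.38 and 0.34 while Htr2c was at 0.47 and 2.05. Levels of Maoa and Maob in Endothelial cells stayed highest or next to highest in either split, with Maob led by AstroSub1 (4.41) among cells of at least 2%. Htr7 stayed highest in ExcitNeuron cells in both. Among low-ribosomal cells the highest type was Endothelial for Htr2c (0.82) and Mossy for Htr2a (4.56). Among the others it was ExcitNeuron for Htr4 (2.73) and AstroSub1 for Htr2a (3.34). After thinning it was Granule for Htr2c and Htr7 (0.76 each) and ExcitNeuron for Htr4 (4.91).

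**Figure D4:**
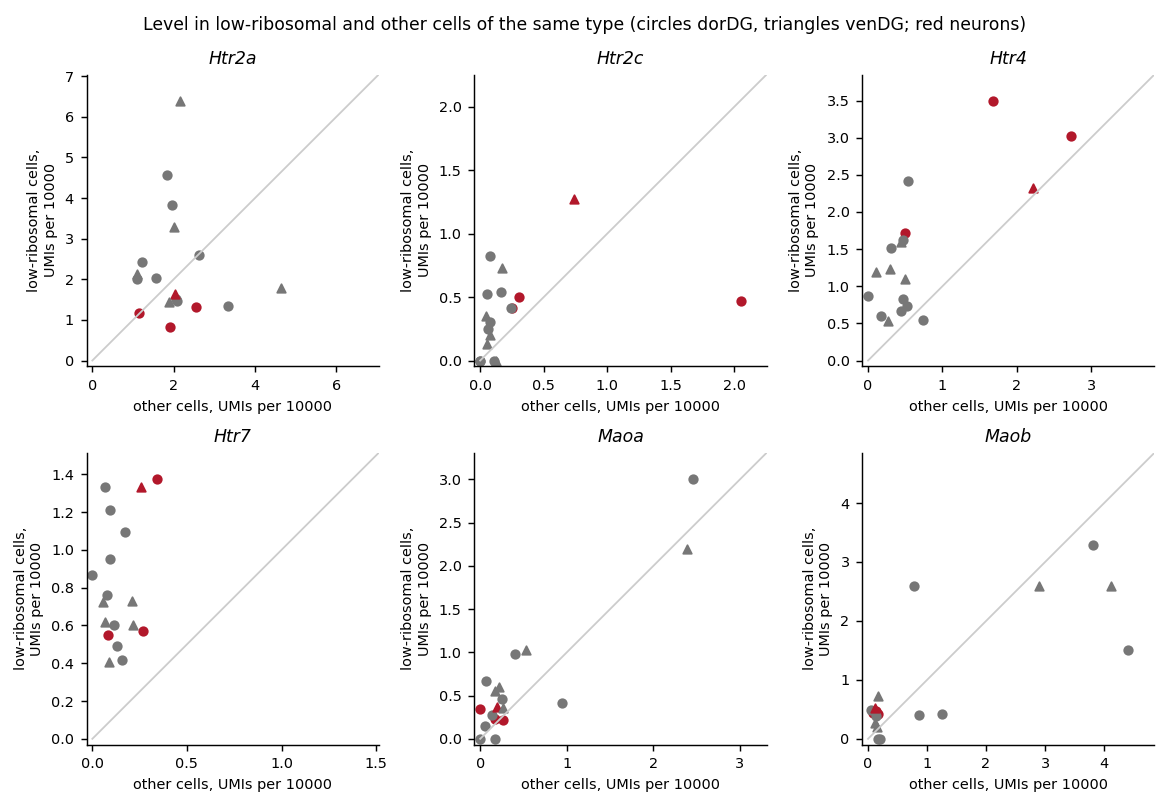
UMIs per 10000 in low-ribosomal cells (y axis) against the other cells (x axis) of the same type, with 18 points per gene for the dorDG types and venDG classes and a line of equality. All 18 Htr7 points and 17 of the Htr4 points lie above the line, and 9 of the Htr2a points do. The same counts over all genes were not taken.

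Of 9 other serotonin receptor genes, 7 were in the tables and none reached 0.5 UMIs per 10000 in either region. Htr1f had no UMI in dorDG and 1 in venDG. Genes of this list and the next are named here after their values were seen. Htr2b, a relative of Htr2a, had 185 UMIs in dorDG and 233 in venDG and was the most counted of them. Htr3a had 8 and 45.

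Of 15 genes of serotonin synthesis, transport and breakdown, 14 were in the tables. Ddc, the decarboxylase that makes serotonin from its precursor, had 0.53 UMIs per 10000 in dorDG and its highest level, 2.99, in Endothelial cells, the type with the highest Maoa and Maob. The transporter Slc6a4 had 22 UMIs in dorDG and 14 in venDG, and Tph2, the neuronal rate-limiting hydroxylase of serotonin synthesis, had 75 and 93. Of the 2 genes of this list that passed the filter in any all-cell comparison, none was called.

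Of 20 genes of receptor coupling, 19 were in the tables, and 11 passed the filter in dorDG. In FT against Sham, 2 of the 11 rose and 4 fell, beside 28.6% of all genes called. Kcnj3, a G protein-gated potassium channel, fell by 1.58 on the log2 scale (SE 0.46, adjusted p 0.155), Plcb1, the phospholipase of the Gq pathway, by 1.24 (SE 0.43, adjusted p 0.166) and Mpdz, a scaffold that binds Htr2c, by 0.73 (SE 0.24, adjusted p 0.162). Gnai2, an inhibitory G protein subunit, rose by 0.81 (SE 0.22, adjusted p 0.155). With the replicate number as a block, where 0% of genes were called, the adjusted p of the 6 genes rose to between 0.216 and 0.274 and none was called. In the blocked fit without the filter, where 3.28% of genes were called, Kcnj3 (adjusted p 0.00101), Gnai2 (adjusted p 0.105) and Plcb1 (adjusted p 0.145) were called. The list's median was -0.23 against -0.04 over all genes tested. Between reactions 7 of these 11 genes were higher and 3 lower in the second, with Kcnj3 at 2.48, Plcb1 at 2.21, Gnas at -2.08 and Kcnj6 at 1.71. Gnai2 had -0.96, and it, Kcnj3 and Plcb1 were each opposite in sign to their FT difference. Low-ribosomal cells and neurons, more frequent in the second reactions, were also more frequent in dorDG Sham replicates, and their part in the FT difference was not tested. In venDG and within every dorDG type tested, none of the list was called.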

How the data were processed

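Single-cell libraries of dorDG and venDG micropunches were made with the 10x 3′ v2 chemistry. The authors counted UMIs per gene and cell with Cell Ranger on a rat genome named rn5 in the submitters' notes, and deposited raw UMI counts per region with cell type labels for dorDG; the notes also name Seurat 3. Of 3517 columns, 3347 cells were used. The 170 venDG columns with a further barcode suffix were left out, 167 of which share a barcode with a used cell. No doublet caller was run.

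Counts were summed per replicate and tested with edgeR 4.0.16 (quasi-likelihood, Benjamini-Hochberg over all genes tested; R 4.3.3), with SE taken as the absolute log2 fold change over the square root of F. Genes needed a mean of 0.5 UMIs per 10000, types at least 5 cells in 3 replicates per group. A gene was called where the adjusted p did not exceed 0.2 and the log2 change reached 0.32 either way. Alternatives were DESeq2 1.42.0, limma 3.58.1 on log2 values with a pseudocount of 0.01, no filter, a cell filter of 1000 genes, 20000 UMIs and 25% mitochondrial UMIs, each left-out replicate, a replicate block and the ribosomal split. The venDG cells were clustered with scanpy 1.11.5 and leidenalg 0.10.2, without the 7 genes or the serotonin lists, and 16.9% of them stayed unnamed. Exact intervals are at 95%, limits of detection are 3 counts, and shares were compared with scipy 1.17.1. The fits were tested on simulated data. The 7 genes are named in every comparison, list genes when called (up to 4 a list by size of change), and the 3 most correlated genes per member. The members, lists and tests were chosen with earlier results of these data known. Promoters are RefSeq GRCr8 and were not placed on rn5.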

Additional observations from a re-analysis of the deposited data

Results flagged for a closer look

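Of 56 sets of 4 or 5 replicate values of the members, 4 held a replicate far from the others, and chance alone gives about 1 in 20. Maoa stood at 0.838 UMIs per 10000 in dorDG Sham replicate 4 and at 0.985 in venDG FT replicate 3, each the highest of its group. The share of cells with an Htr4 UMI was 26.1% in venDG FT replicate 5 and 38.1% in venDG Sham replicate 3, again the highest of each group.

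The 170 venDG columns left out for their further barcode suffix also held UMIs of 6 of the 7 genes, above the 0.102 UMIs per 10000 that a count of 0 allows there. Htr2a was at 3.53 UMIs per 10000 in them, Htr4 at 2.17, Maob at 1.09, Htr7 at 0.917, and Htr2c and Maoa both at 0.544.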

How the results depend on the processing

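Over 287 alternatives of 17 main results, 243 kept their direction and side of the threshold or stayed within 1.5 times the count, and over 635 alternatives of 39 values of single genes, 578 did. The number of members called in FT against Sham in dorDG rose from 0 to 1 with DESeq2 and with limma (0 to 1 over left-out replicates), within venDG classes it ran from 0 to 2 over left-out replicates, and between regions within classes it was 1 with DESeq2 and 2 with no filter. Shares below an exact permutation p of 0.05 went from 0 to 1 after thinning (Htr2c in dorDG) and in low-ribosomal cells (Maoa in dorDG) (0 to 1 over left-out replicates). Genes called in FT against Sham in dorDG went from 1221 to 1849 with DESeq2, 207 with no filter, 615 with the written cell filter, 23 in low-ribosomal cells, 0 in cells of at least 2% ribosomal UMIs and 0 to 1969 over left-out replicates. In venDG they went from 0 to 18 with DESeq2 and 3 with no filter, for the interaction from 0 to 8 with DESeq2 and 0 to 335 over left-out replicates, between regions from 9 to 50 with DESeq2, 50 with no filter, 121 in low-ribosomal cells, 0 in the other cells and 1 to 49 over left-out replicates, and between reactions from 3685 to 9724 with no filter. The cause was not tested.

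The labels do not say that a replicate number marks shared animals or a batch. For the frozen tissue, the study's methods say that the Sham and FT samples of a replicate were handled in parallel. For the fresh tissue, they say that both regions were punched from the brains of each treatment group. The correlation of deviations had a median of 0.247 over 27 same-number pairs (-0.224 to 0.561) and -0.063 over 108 other pairs, and 16 of 19 replicates were closest to their own number, a hint of pairing from the data. The correlation was above 0.1 in 2 of 4 pairs of the FT comparison in dorDG, 4 of 5 in venDG and 8 of 9 between regions, so in no comparison in every pair, which was required to treat the numbers as pairs. That requirement does not exclude shared pools, which the main fits would ignore. With a replicate block no member was called between regions or for the interaction either. With a replicate block the dorDG count of genes called fell from 1221 to 0, and the members called stayed at 0.

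Directions turned in the cases listed next, none of them past the threshold, leaving out the cell subsets of the reaction comparison (above). In that comparison Htr2a (1.06) and Maoa (1.37) turned and were called in cells of at least 2% ribosomal UMIs. Htr4 (-0.85) turned there too, without a call. For FT in dorDG, Htr4 was 0.23, Htr7 0.26 and Maob -0.21 in low-ribosomal cells, Htr2a -0.25 and Maob -0.29 in the other cells, and Maob -0.055 with the block. For FT in venDG, Htr2c was -0.74 and Htr7 -0.13 in cells of at least 2% (Htr2c 1.30 in low-ribosomal cells), Htr4 0.072 in low-ribosomal cells, Maoa 0.067 with no filter and 0.00081 with the written filter, and Maob 0.022 with no filter, 0.019 with limma and 0.0076 with the block. For the interaction, Htr2a was 0.44, Htr4 0.15 and Maob -0.16 in low-ribosomal cells, Htr2c 0.11, Htr4 0.00031 and Maob -0.14 in the others, and Maob -0.055 with the block. Maob between reactions was -0.022 with DESeq2 and -0.093 with no filter. Over left-out replicates the sign changed for Htr2a between reactions (-0.30 to 0.011), Htr4 in venDG (-0.33 to 0.064), Maoa in venDG (-0.28 to 0.067), and Maob in dorDG (-0.15 to 0.27), venDG (-0.25 to 0.14), between regions (-0.22 to 0.013), for the interaction (-0.17 to 0.31) and between reactions (-0.13 to 0.19).

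Depth limits Htr1a throughout, and Htr2c and Htr7 outside neurons.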
